A study of Danio rerio with 2 samples.

Results

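The tall solitary peaks of RARaa, a zebrafish retinoic acid receptor, were described in chromatin immunoprecipitation sequencing (ChIP-seq) data. A solitary interval was a peak interval with no other interval midpoint within 10000 bp on its chromosome, and it was called tall when its pileup, the number of extended ChIP tags covering the summit, was at least 70. Of 4750 distinct intervals, 4547 were on chromosomes 1 to 25 of the Zv9 build and 3670 of these were solitary. The rule retained 321 tall solitary intervals, against 3349 solitary intervals below 70 tags, called here the other solitary intervals. Since pileup chose them, and length, fold enrichment, score and input level come from the same pair of libraries, all values are a description without a test.

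Retinoic acid (RA) is a derivative of vitamin A that patterns the hindbrain, the somites and the endoderm, including the pancreas. Its receptors (RAR) pair with retinoid X receptors (RXR) and bind response elements in promoters and enhancers, typically direct repeats of a short hexamer. Genes of the pathway itself and hox genes are classical targets of these receptors. The base sequence of the intervals was not analysed here.

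The study comprised 1 ChIP library and 1 input library from whole zebrafish embryos. In both, embryos had received mRNA for RARaa carrying a myc tag, were labelled 10.5 hours post fertilization, were exposed to RA for 1 hour and were fixed in 1.85% paraformaldehyde for 10 minutes. The ChIP library was pulled down with an antibody against the myc tag and had 39480982 tags after duplicate removal, whereas the input library was an aliquot of chromatin taken before the pulldown and had 51506879. By the study's methods RA was added at the labelled stage, so harvest was later than the label. Many embryos were pooled, so the tags come from a mixture of cell types. The antibody was directed only at the tag of the injected receptor. Untreated embryos, uninjected embryos and a repeat pulldown were not among the libraries, so the spread between pools of embryos is unknown. Intervals on pileup and on fold enrichment cover counting error only, and those on medians and shares treat intervals as independent draws.

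Most tall solitary intervals stood over a low input. Their pileup ranged from 70 to 400 tags with a median of 92 (95% interval of the median 89 to 96), against 16 to 69 tags with a median of 28 (27 to 28) for the other solitary intervals. The fold enrichment over input, the authors' ratio of pileup to local background, had a median of 10.9 in tall solitary intervals (10.5 to 11.4; range 1.28 to 26.8) and of 3.57 in the other solitary intervals (3.52 to 3.61; range 1.78 to 10.5). Thus the ranges overlapped between 1.78- and 10.5-fold, and a tall site was not always a strongly enriched one. At least 10-fold enrichment was reached by 201 of 321 tall solitary intervals and by 5 of 3349 others, while 23 tall solitary intervals and 11 others were below 2-fold. The background cannot fall below 5.64 tags, so a site of 69 tags cannot exceed 10.5-fold. The upper end of the overlap and the small number of others at 10-fold are thus set by the pileup rule, and nothing is read from them.

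The −log10 q-value of the peak caller had a median of 56.9 in tall solitary intervals, against 5.47 in the other solitary intervals. A value above 5 was reached by 302 tall solitary intervals (94.1%, 95% Wilson interval 90.9 to 96.2%). Over all intervals of the numbered chromosomes this share was 60.5%, and over all solitary intervals it was 57.4%. Because pileup enters both the rule and the q-value, nothing is read from this difference. The 19 tall solitary intervals that missed this value all had a high input background.

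The input background was the second axis along which the tall solitary intervals differed among themselves. Each site has a local background, the scaled number of input tags against which the ChIP pileup was scored, and its floor is the genome-wide level of 5.64 tags. The median background was 7.51 tags in tall solitary intervals (7.21 to 7.67), against 6.59 tags in the other solitary intervals (6.53 to 6.70). The upper ends were further apart, with a maximum of 307 tags in the tall solitary intervals and of 29.1 tags in the others. A site below 70 tags must still pass the q-value threshold over its background. Its highest possible background is thus limited by the rule and the peak calling, and nothing is read from the gap.

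Input was divided into low (under 2 times the genome-wide level, or 11.3 tags), intermediate, and high (5 times or more, from 28.2 tags) classes. The low class held 278 of 321 tall solitary intervals (86.6%), the intermediate class 9 (2.80%) and the high class 34 (10.6%, 7.68 to 14.4%). Of the other solitary intervals, 3195 were low (95.4%), 152 were intermediate (4.54%) and 2 were high (0.0597%). High input was found at 2.82% of all intervals on the numbered chromosomes and at 0.981% of solitary ones. A low site with high input cannot be listed unless it passes the q-value threshold, so the number of high-input sites below 70 tags is in part set by the peak calling. The highest solitary pileups at low input were 217 tags on chromosome 3 from 26536291 to 26536939 and 215 tags on chromosome 2 from 39401069 to 39401559, and every one of the 14 tall solitary intervals above 217 tags had high input.

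**Figure D1:**
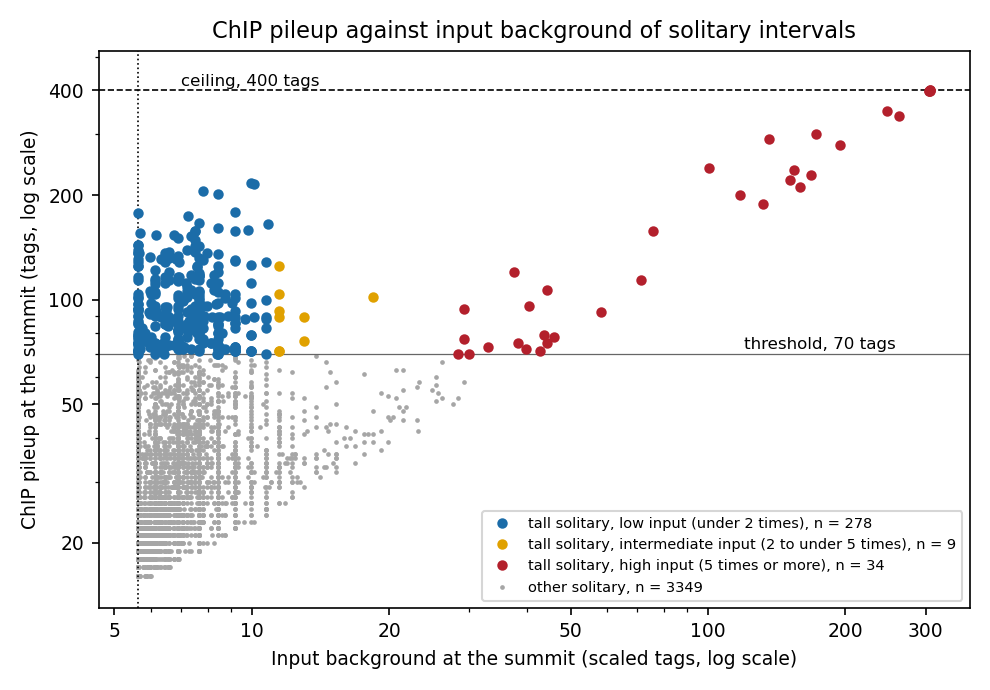
ChIP pileup at the summit (tags, log axis) against input background at the summit (scaled tags, log axis) for the 3670 solitary intervals, 1 point each. The 278 low-input tall intervals (blue) stand in a column between 5.64 and 11.3 background tags, the 34 high-input ones (red) form a band that ends at the ceiling of 400 tags (dashed line), and the dotted line marks the genome-wide background.

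The low-input tall intervals were the strongly enriched class. Their fold enrichment ranged from 6.05 to 26.8 with a median of 11.5, and 200 of 278 reached 10-fold. Their −log10 q-values lay between 29.2 and 203, a range whose lower end is set by the limits on pileup and background. The high-input tall intervals had fold enrichments between 1.28 and 3.15 with a median of 1.68. Fold enrichment is pileup over background, so the limits that define the classes push these ranges apart. They set a lower end for the low-input class. At the lower backgrounds of the high-input class, pileups up to the ceiling of 400 tags would allow higher fold enrichments than those found. At its highest backgrounds, of 305 to 307 tags, the ceiling holds fold enrichment to about 1.3. How far the ceiling limits the sites between was not tested. The high-input tall intervals had a higher pileup, with a median of 173 tags against 90 tags in the low-input class. Their median background of 88.1 tags was 15.6 times the genome-wide level. In the 9 intermediate intervals fold enrichment lay between 5.31 and 10.1, and the single one above 10-fold was on chromosome 13 from 17137109 to 17137491 with 125 tags.

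The window that set the background could be read from its value, which does not give the width of the raised input. The peak caller takes the largest of the input levels in windows around the summit and the genome-wide level, and each background was assigned to the narrowest window in which it is a whole number of input tags. A wider window can by coincidence give such a value too, so the numbers for the narrowest are upper limits. The 200 bp window, the extended length of 1 tag, was assigned at 33 of 34 high-input tall intervals and the 1000 bp window at the remaining 1. In the low-input class the 200 bp window was assigned at 110 intervals, the 1000 bp window at 67, the 10000 bp window at 60 and the genome-wide level at 41. Over all tall solitary intervals the 200 bp window was assigned at 152 of 321. The corresponding share was 39.2% over all intervals and 37.8% over solitary ones.

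The tall solitary intervals with the highest fold enrichment were spread over several chromosomes. The highest value, 26.8 (95% counting interval 23.0 to 31.0), was found on chromosome 19 from 22018983 to 22019396, where 177 ChIP tags (152 to 205) stood over a background of 5.64 tags. This interval is distal and intergenic, and the study's annotation assigns it to tshz1, a gene for a zinc finger transcription factor of the teashirt family. Next came chromosome 16 from 7539987 to 7540372, with 156 tags and 23.5-fold, and chromosome 12 from 36734472 to 36734910, with 206 tags (179 to 236) and also 23.5-fold. The chromosome 12 site had the highest −log10 q-value of the tall solitary intervals, 203. The counting intervals of these 3 sites overlap, so their order is not resolved by the depth.

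The remaining sites among the top 10 lay between 20.6- and 21.8-fold. On chromosome 6 from 2075652 to 2076050 and on chromosome 22 from 1685557 to 1686013 the pileup was 144 tags and the fold enrichment 21.8 (18.4 to 25.7). Chromosome 14 from 184466 to 184835 had 154 tags (21.6-fold), and chromosome 13 from 17381484 to 17381974 had 201 tags (21.4-fold). These 4 also overlap in their counting intervals. On chromosome 12, a site from 36560221 to 36560670 had 174 tags (21.2-fold) and one from 50355529 to 50355916 had 139 tags (21.1-fold). The last of the 10, on chromosome 24 from 39005801 to 39006311, had 136 tags and 20.6-fold, a value shared with the nr6a1b interval described below. Chromosome 12 thus carried 3 of the 10, and in all 10 the input background was between 5.64 and 8.43 tags. In all, 12 tall solitary intervals reached 20-fold.

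At the other end, the 5 tall solitary intervals with the highest background were saturated in both libraries. As 1 tag was kept per position and strand, no pileup of 200 bp tags can exceed 400, and a site full in both libraries is listed at 1.30-fold because the input was scaled by 0.767. On chromosome 24 from 11695057 to 11695879 and on chromosome 20 from 6555573 to 6557046 the pileup was 400 tags, the highest of the tall solitary intervals, over a background of 307 tags. On chromosome 17 from 43027476 to 43028557 it was 399 tags over 306, on chromosome 24 from 12341784 to 12342143 it was 398 over 305, and on chromosome 9 from 16015439 to 16016352 it was 399 over 305. Their fold enrichments of 1.30 to 1.31 were therefore those of saturation, and a ratio of ChIP to input at these 5 sites cannot be measured. No other tall solitary interval was within 5% of the ceiling.

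Around the threshold the choice of 70 tags cut through a continuous range. The 9 tall solitary intervals with the lowest pileup all had 70 tags, for which the counting interval is 54.6 to 88.4, with a median fold enrichment of 7.53 (range 2.30 to 10.7). The 9 solitary intervals just outside it all had 69 tags, with a median of 8.64 (4.73 to 10.5). Of those at 70 tags, 2 had high input, both on chromosome 5, and none of those at 69 tags did. Single intervals on either side of the threshold are not told apart by their pileup.

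Tall solitary intervals were longer than the other solitary intervals. The median length was 370 bp (365 to 376; quartiles 340 and 416) in tall solitary intervals, against 242 bp (240 to 244; quartiles 214 and 285) in the others. A length of 250 bp or less was found in 15 tall solitary intervals (4.67%) and in 1865 others (55.7%), and a length over 500 bp in 37 tall solitary intervals (11.5%) and in 18 others. The shortest length in the list was 200 bp, the extended tag length. The ends of an interval are set by the calling threshold, so length is not independent of height.

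At low input, median length was greater at higher pileup up to 149 tags. At low input the median was 223 bp between 16 and 29 tags, 263.5 bp between 30 and 49 tags, 316.5 bp between 50 and 69 tags, 357.5 bp between 70 and 99 tags and 394 bp between 100 and 149 tags. The step at the threshold therefore continued a gradient, and the median was again 394 bp in the 15 intervals between 150 and 199 tags and 491 bp in the 4 intervals from 200 tags. Spearman's rho between pileup and length was 0.617 over the 3473 low-input solitary intervals and 0.435 over the 278 low-input tall ones. All points share the same libraries and the same calling threshold.

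High-input tall intervals did not share this length. Between 70 and 99 tags, the 13 high-input intervals had a median length of 228 bp (range 200 to 452), against 357.5 bp (283 to 1980) in the 170 low-input intervals of the same height. Between 100 and 217 tags, 7 high-input intervals had a median of 229 bp (205 to 385) and 108 low-input intervals a median of 397.5 bp (318 to 804). At matched height the high-input sites were thus the shorter ones, and all 15 tall solitary intervals of 250 bp or less had high input. The calling threshold is relative to the background, so length is not independent of input either. Above 217 tags, where no low-input interval was found, the 14 high-input intervals reached a median of 363 bp.

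**Figure D2:**
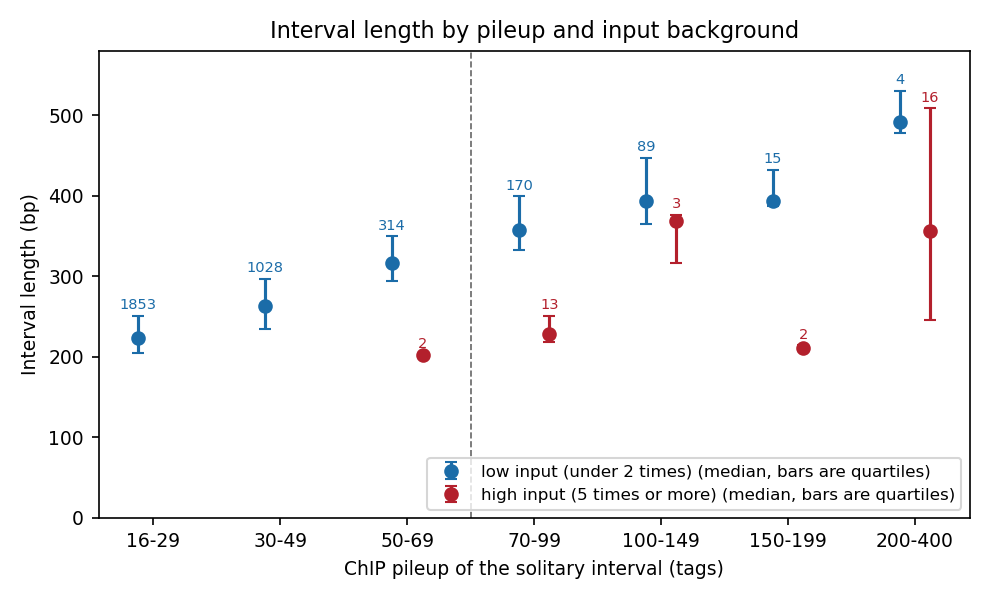
Interval length (bp) of solitary intervals by ChIP pileup (tags), for low input (blue) and high input (red). Points are medians, bars are quartiles, the number above each point is the count of intervals, and the dashed line marks the 70 tag threshold. The low-input medians are 394 bp at both 100 to 149 and 150 to 199 tags and 491 bp in the 4 intervals from 200 tags, and the 13 high-input intervals of 70 to 99 tags have a median of 228 bp.

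The summit of a tall solitary interval usually stood near its midpoint. The distance between summit and midpoint had a median of 9.5 bp (7.5 to 10.5; upper quartile 20.5) in tall solitary intervals and of 9.5 bp (9.5 to 10.5; upper quartile 21.5) in the other solitary intervals. As the tall intervals were longer, this was 2.56% of the length against 3.92%. At low input the median was 12.5 bp (5.30%) between 16 and 29 tags and 7 bp (2.70%) between 30 and 49 tags. It was 8 bp (2.55%) between 50 and 69 tags and 8.25 bp (2.34%) between 70 and 99 tags. At low input the larger relative distance was thus that of the lowest pileups, and the values changed little at the threshold. The summit was left of the midpoint in 159 tall solitary intervals, right of it in 155 and exactly on it in 7, so neither side prevailed. It was within 10 bp in 173 tall solitary intervals (53.9%) and in 1718 others (51.3%).

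Large shifts were found at low and at high input and in every tall solitary interval with several summits. The median shift was 23.5 bp, or 8.36% of the length, in the 34 high-input tall intervals. It was 8.75 bp, or 2.35% of the length, in the 278 low-input ones. These classes were not matched for pileup. Between 70 and 99 tags the median shift was 9 bp (3.44%) in 13 high-input intervals and 8.25 bp (2.34%) in 170 low-input ones. From 100 tags to the highest low-input pileup it was 19 bp (8.76%) in 7 high-input intervals and 9.5 bp (2.37%) in 108 low-input ones. The shifts of these 7 ranged from 0.5 to 92 bp. In the 14 high-input intervals of still higher pileup the median was 50.5 bp (9.79%). A shift over 50 bp was found in 39 tall solitary intervals (12.1%) and in 266 others (7.94%). Of the 39, 27 had low input (9.71% of the 278) and 11 had high input (32.4% of the 34). More than 1 summit was listed for 7 tall solitary intervals, and all 7 had a shift over 50 bp and a length over 500 bp. Among the other solitary intervals 31 had more than 1 summit. The corresponding share was 1.78% over all intervals and 1.04% over solitary ones.

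**Figure D3:**
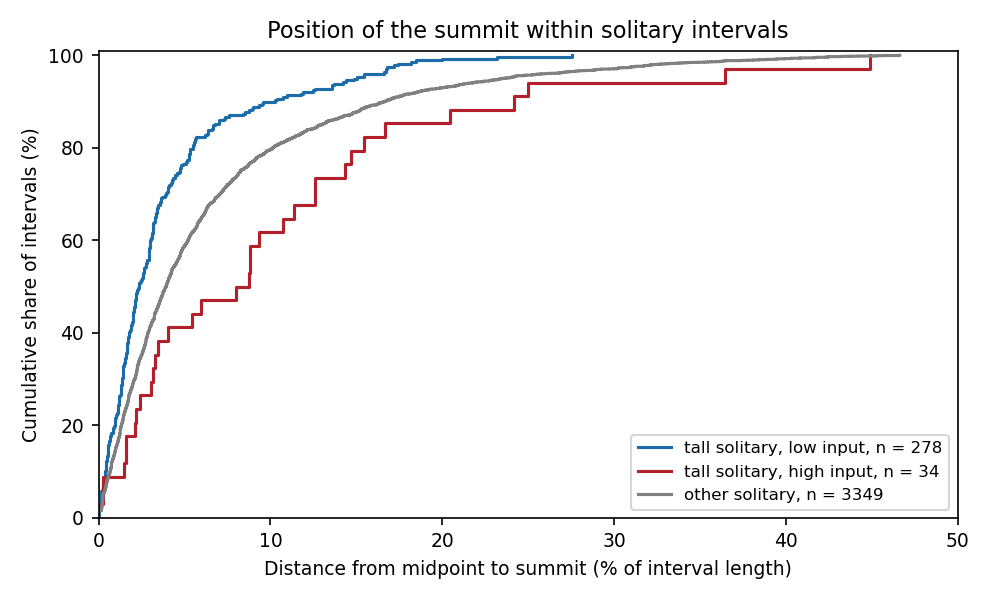
Cumulative share of intervals (%) against the distance from midpoint to summit (% of interval length), for low-input tall (blue), high-input tall (red) and other solitary intervals (grey). The medians are 2.35%, 8.36% and 3.92% of the length, and the red curve, which rests on 34 intervals, lies lowest over most of its range. The groups are not matched for pileup.

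The largest shift, −545.5 bp, was found in the longest tall solitary interval, on chromosome 1 from 60256519 to 60258498. It spanned 1980 bp with 6 summits, and its tallest summit had 77 tags and 11.7-fold enrichment over the genome-wide background. The study's annotation places it in the promoter class of col5a3b, a gene for a fibrillar collagen chain. The shift was −159 bp on chromosome 18 from 32962212 to 32962896 (685 bp, 2 summits) and 148.5 bp on chromosome 17 from 53856247 to 53857050 (804 bp, 2 summits). The chromosome 17 interval had 166 tags and 19.3-fold enrichment, and is assigned to ttc8, a gene for a protein of the ciliary BBSome complex. After the chromosome 1 interval, the longest were the saturated one on chromosome 20 (1474 bp) and one of intermediate input on chromosome 9 from 54605102 to 54606568 (1467 bp, 3 summits, 76 tags). Very long intervals therefore occurred in all 3 input classes and did not mark a single kind of site.

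Tall solitary intervals were found on every numbered chromosome. Chromosome 13 had the most, 23, which were 14.0% of its solitary intervals (9.53 to 20.2%), and chromosome 12 followed in share with 15, or 12.2% (7.53 to 19.1%). Chromosome 3 had the lowest share, 6 intervals or 3.92% (1.81 to 8.29%), although 20 tall intervals with a neighbour were also located there. The fewest, 5, were on chromosome 25. The Wilson intervals of chromosomes 13 and 3 did not overlap, but they were picked as the extremes of 25 chromosomes, and the shares of most chromosomes overlapped.

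High-input tall intervals were absent from 9 chromosomes and numbered 4 each on chromosomes 4, 5 and 8. The 15 tall solitary intervals of chromosome 12, which carries a hoxb cluster, all had low input, as did the 6 on chromosome 3, which carries the other. The same held for the 14 on chromosome 6, the 9 on chromosome 10, the 14 on chromosome 15 and the 5 on chromosome 25. Low input was found at 86.6% of all tall solitary intervals, so this is no trait of the hoxb chromosomes. On chromosome 4, 21 tall solitary intervals made up 9.91% of the solitary ones (6.57 to 14.7%), a share inside the range of the other chromosomes.

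**Figure D4:**
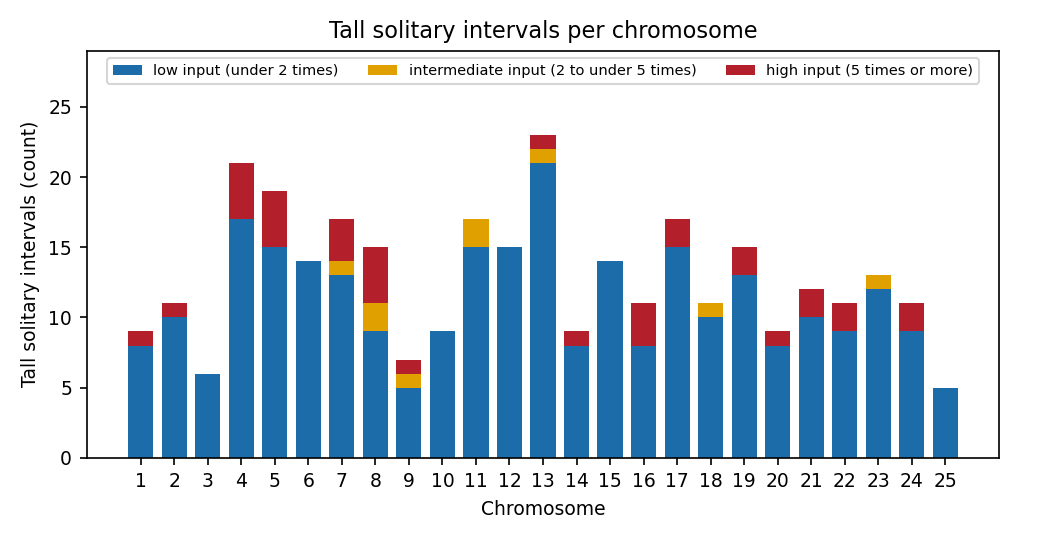
Number of tall solitary intervals on each of the 25 chromosomes, stacked by input class (blue low, yellow intermediate, red high). Chromosome 13 has 23 and chromosome 25 has 5, and red segments are tallest on chromosomes 4, 5 and 8 with 4 intervals each.

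Although solitary by the rule, tall intervals were nearer to other intervals than the other solitary intervals were. The nearest midpoint was at a median of 59164 bp from tall solitary intervals (50308.5 to 73643.5), against 101852.5 bp (97613 to 108051) from the other solitary intervals. A neighbour within 50 kb was found for 142 tall solitary intervals (44.2%, 38.9 to 49.7%) and for 987 others (29.5%). Conversely, 39 tall solitary intervals (12.1%) and 725 others (21.6%) had none within 250 kb. Of these 39 isolated tall sites, 29 had low input and 9 had high input, and their median fold enrichment was 9.95.

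By input class, the nearest interval was at a median of 54172.75 bp from low-input tall intervals and of 107148.75 bp from high-input ones. The nearest interval was itself tall for 38 of 278 low-input tall intervals (13.7%, 10.1 to 18.2%) and for 298 of 3195 low-input other solitary intervals (9.33%, 8.37 to 10.4%). Another tall solitary interval lay within 100 kb of 62 of the 321. Of all 4547 intervals on the numbered chromosomes 569 were tall, so a lower nearest neighbour was the common case in both low-input groups. Nothing is read from it about the tall solitary intervals.

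Of the 34 high-input tall intervals, 9 (26.5%) had another of the same class within 250 kb. The matching share was not computed for the low-input class, so no clustering is read from this number. On chromosome 5, intervals starting at 44748705, 44841659 and 44901991 had 70, 72 and 70 tags, over backgrounds of 29.9, 39.9 and 28.4 tags. On chromosome 22, intervals starting at 28947429 and 29027031 had 290 and 240 tags with fold enrichments of 2.13 and 2.38, and −log10 q-values of 26.3 and 27.8. Those were the highest −log10 q-values of the high-input class. The other pairs were on chromosome 8, starting at 35299893 and 35466414, and on chromosome 16, starting at 11042158 and 11176892. These groups were named after their values were seen.

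The 321 tall solitary intervals were also set against the 248 tall intervals that had a neighbour within 10 kb. The high class held 34 tall solitary intervals (10.6%, 7.68 to 14.4%), against 87 of the tall intervals with a neighbour (35.1%, 29.4 to 41.2%). Within the low-input class the median fold enrichment was 11.5 in 278 tall solitary intervals (11.1 to 12.0) and 12.5 in 147 with a neighbour (11.0 to 13.1), so the intervals of the medians overlapped. The median length was 373 bp in low-input tall solitary intervals (367 to 381) and 405 bp in those with a neighbour (391 to 429). Their median pileup was 90 tags in tall solitary intervals and 104 tags in those with a neighbour, and the highest was 217 tags and 242 tags.

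A gene name was available for 43 of the 321 tall solitary intervals (13.4%). It was also available for 171 of the 3349 other solitary intervals (5.11%) and 56 of the 248 tall ones with a neighbour (22.6%). Of all 4547 intervals on the numbered chromosomes, 352 had a name. The study's annotation, matched here by exact coordinates, gives the nearest gene for sites close to genes that the study listed as responding to RA (27 tall solitary intervals) or inside conserved elements (18, of which 2 are also among the 27). It lists only sites selected by the study, in part on a peak score. The absence of a name therefore says nothing, and the numbers of named sites per class are not compared. Nearest-gene assignment does not show regulation. The study read the response to RA, as a rise or a fall, in sorted endodermal cells. Those cells came from embryos treated through blastula and gastrula stages, unlike the whole embryos treated for 1 hour here. The 43 intervals named 42 genes and fell into the promoter class (20), distal intergenic sequence (11), introns (7), exons (4) and a 3′ untranslated region (1). All 43 had low input, between 5.64 and 10.7 background tags, a class that held 278 of all 321 tall solitary intervals. The 43 had a median pileup of 94 tags (71 to 177) and a median fold enrichment of 12.1 (6.57 to 26.8).

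Of the 4 gene lists examined, that of 24 nuclear receptors and coregulators had 5 named tall solitary intervals at 5 genes. Named sites were selected by the study and the lists differ in size, so numbers are not compared between lists or classes. The lists were drawn up with earlier results of these data known and are no independent support. The injected receptor's own gene, raraa, had a promoter class interval on chromosome 12 from 12185155 to 12185492 with 118 ChIP tags (97.7 to 141) over 8.28 background tags, or 12.8-fold. Its other named intervals, 2 in number, were solitary too and reached 65 tags. The gene of an RXR partner, rxrgb, had a promoter class interval on chromosome 20 from 33896804 to 33897250, also with 118 tags and 14.2-fold.

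The other members of this group are 2 orphan nuclear receptors and a coactivator. The nr2f5 interval, on chromosome 16 from 49334270 to 49334747, was distal and had 115 tags (94.9 to 138) and 16.3-fold enrichment; nr2f5 belongs to the COUP-TF family. The nr6a1b interval, in the promoter class on chromosome 21 from 7733574 to 7734082, had 136 tags (114 to 161) and 20.6-fold enrichment, and nr6a1b is an orthologue of germ cell nuclear factor. The ncoa3 interval, distal on chromosome 11 from 19058822 to 19059215, had 158 tags (134 to 185) and 18.7-fold enrichment; ncoa3 encodes a coactivator that nuclear receptors recruit when bound by ligand. In this group, 8 other solitary intervals were named at nr2f2, nr6a1b, nrip1a, raraa and rarab, and no interval with a neighbour within 10 kb was named.

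From the list of 13 genes of RA metabolism and binding, a single tall solitary interval was named, at dhrs3b, a gene for a reductase that returns retinaldehyde to retinol. It lay on chromosome 11 from 29452100 to 29452532 and had 86 tags and 8.53-fold enrichment, and dhrs3b had 6 further named intervals, of which 4 were tall ones with a neighbour. At cyp26a1, cyp26b1, dhrs3a and dhrs3b together, 13 tall intervals with a neighbour were named. From the list of hox genes and partners, which did not hold the spelling meis1, 1 tall solitary interval was named, at hoxa1a on chromosome 19 from 19287945 to 19288279 with 95 tags (76.9 to 116) and 12.8-fold enrichment, while 16 tall intervals with a neighbour were named at 9 genes. The meis1 interval, at a gene for a cofactor of hox proteins, was distal on chromosome 13 from 5129470 to 5129966 and had 161 tags (137 to 188) and 17.2-fold enrichment, and meis1 also had 2 named tall intervals with a neighbour. For the list of 18 endoderm and pancreas genes no tall solitary interval was named on the numbered chromosomes, while 7 other solitary intervals were named at hnf1bb, insm1b and jag2b, 1 tall interval with a neighbour at hnf1ba and 2 lower ones with a neighbour at hnf1ba and mnx1. A gata6 site with 135 tags and 15.7-fold enrichment was on an unplaced sequence, outside the rule.

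Other genes with a named tall solitary interval, chosen after their values were seen, include genes for transcription factors and corepressors. The lhx1a interval, in the promoter class on chromosome 15, had 136 tags and 15.3-fold. The gbx2 site had 85 tags (10.9-fold) and was located in an exon of the neighbouring AGAP1, dlx3b had 93 tags (9.22-fold), znf503 had 89 tags (9.47-fold) and foxg1b had 72 tags (7.74-fold), the last 3 in the promoter class. The gene skia, for a corepressor of the SKI family, was the single gene with more than 1 tall solitary interval, with 87 and 117 tags in its introns.

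Among the named sites outside these roles, also chosen after their values were seen, were those at usp25, for a ubiquitin protease, with 158 tags in an intron (18.7-fold), and moxd1, for a monooxygenase, with 103 tags (13.2-fold). The signalling genes ror1, for a receptor of Wnt ligands, and bambia, for a pseudoreceptor of the TGF-beta family, had 105 tags (12.2-fold) and 100 tags (8.61-fold). The lowest fold enrichment of the named tall solitary intervals, 6.57, was at SLC22A3, for an organic cation transporter, with 71 tags in the promoter class. The only site in a 3′ untranslated region, at qkib, for an RNA-binding protein, had 73 tags (10.6-fold). For 26 of the 42 genes the tall solitary interval was the only interval named.

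**Figure D5:**
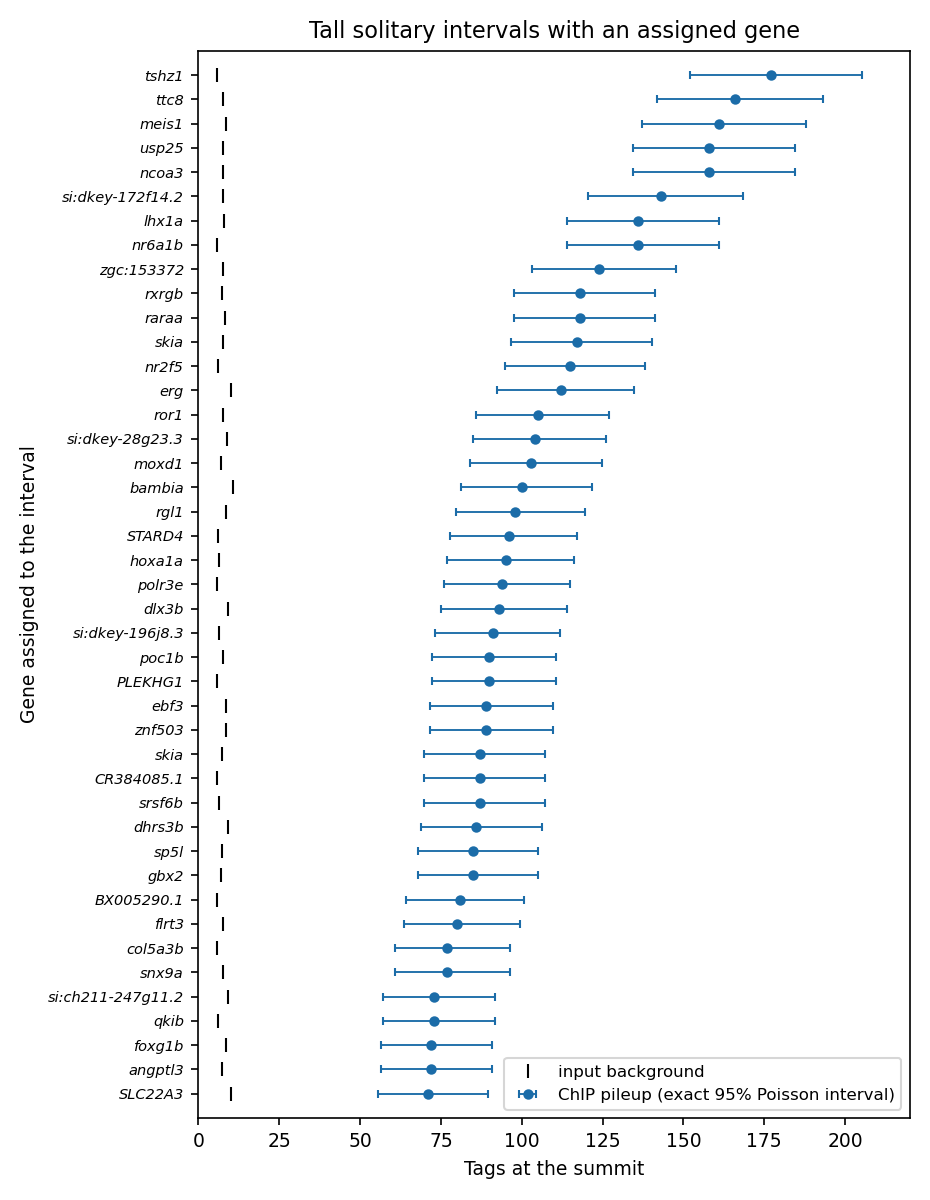
ChIP pileup at the summit (points, with exact 95% Poisson intervals) and input background (black ticks), in tags, for the 43 tall solitary intervals with an assigned gene, ordered by pileup. Pileups run between 71 tags at SLC22A3 and 177 tags at tshz1, and every background tick is at or below 10.7 tags.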

How the data were processed

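Reads were mapped by the authors to Zv9 with bowtie2, and MACS2 (2.1.1.20160309) was run with input as control, a q-value limit of 0.05 and 1400000000 bp as the effective genome. Per the file headers, 41 bp tags were lengthened to 200 bp, 1 tag was kept per position and strand, reads were not treated as pairs and the input was scaled by 0.767. Of 48809259 ChIP tags 39480982 were kept, and of 54439579 input tags 51506879. Pileup, as deposited, is a signal that counts extended ChIP tags over the summit. Both −log10 scores deposited by the authors (p-value and q-value) rest on a Poisson model against local input, and their fold enrichment divides pileup by that background, with a pseudocount of 1 in both. MACS2 listed 1 line per summit. Mates of a pair may both have been counted, which would make the counting intervals too narrow.

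Groups were taken from the antibody label. The 4858 lines were collapsed to 4750 intervals by coordinates, keeping the highest pileup, and distances were taken between midpoints. The background was recovered from pileup and fold enrichment. The −log10 p-values recomputed from it differed from the deposited ones by at most 0.00427%. The background was assigned to the narrowest window, of 200, 1000 or 10000 bp, in which it was a whole number of input tags, each worth 0.767 scaled tags at 200 bp. Medians have 95% intervals from binomial ranks, shares Wilson intervals and pileups exact Poisson intervals; fold intervals take the background as fixed. Of these steps, the member rule and the recovery of the background were tested on simulated data. Python 3.11.15, numpy 2.4.6, pandas 2.3.3 and scipy 1.17.1 were used. Distinct intervals were matched by exact coordinates to the study's site annotation, of which names and kind of location were used, and 352 of its 360 intervals matched on chromosomes 1 to 25. The gene IDs of 34 of the 43 named tall solitary intervals were in the reference gene table.

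The members, gene lists and input classes were chosen with earlier results of these data known. Intervals named with coordinates were the 10 of highest fold enrichment, the 5 of highest background, the highest pileup, the 3 largest shifts and the 3 longest. Those at the threshold were described as groups. Other intervals, and the genes outside the lists, were named after their values were seen. Alternatives were other limits for pileup, neighbours, q-value and input, no pseudocount, single summits and unplaced sequences.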

Additional observations from a re-analysis of the deposited data

How the results depend on the processing

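The median distance between summit and midpoint, 9.5 bp, stayed within its interval under all 10 alternatives. The number of tall solitary intervals, 321, was 132 from 100 tags and 179 when neighbours were sought within 50 kb. The median length, 370 bp, was 359 bp from 60 tags, 379 bp from 80 tags and 391.5 bp from 100 tags, which follows the gradient of length with pileup. The median background, 7.51 tags, was 8.51 tags without the pseudocount, which adds 1 by construction. The share at high input, 10.6%, was 15.9% from 100 tags and 6.23% where high began at 10 times the genome-wide level. It was 5.33% when only lines with −log10 q above 5 were kept before neighbours were sought. That alternative redefined the set and gave 319 tall solitary intervals. The other alternatives left these values within their intervals or, for the number, within 1.5 times. No paired analysis was possible because each group had a single library, and no replicate could be left out. The depth does not order single sites whose counting intervals overlap, and sites near 400 tags cannot show their enrichment.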

Other observations

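On 122 unplaced sequences, outside the rule used in the report, 203 intervals were listed and 136 were solitary. Of these, 15 had at least 70 tags. Their fold enrichment had a median of 9.69 (range 1.30 to 22.0), and 4 of them had high input. The unplaced sequences are short, so a neighbour may be missed at their ends. Among them, and named after its values were seen, was a distal interval assigned to gata6, a gene for a transcription factor of the endoderm, with 135 ChIP tags (113 to 160) over 7.67 background tags and a fold enrichment of 15.7 (13.2 to 18.6). Its length was 404 bp and its summit stood 0.5 bp from the midpoint. A second named one, assigned to kirrel3l in the promoter class, had 84 tags (67.0 to 104) and 9.81-fold enrichment.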
